A study of Mus musculus with 26 samples.

Results

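The 6 genes described here, Id1, Id2, Id3, Id4, Msx1 and Msx2, are direct targets of bone morphogenetic protein (BMP) signalling. They were taken by gene symbol from 25239 genes, and each had a row in all 6 deposited tables. RNA was sequenced from mouse embryonic stem cells labelled C57BL/6, with (HMCES-KO) or without (WT) a knockout of Hmces, whose protein binds DNA at abasic sites. All cells of both genotypes were grown in serum medium on gelatin-coated plates, and serum itself can carry BMP activity. Treated cells received 10 ng/ml BMP4, 50 ng/ml activin A, 10 µM SB431542 or 50 nM LDN193189 for 2 h. Activin A is a ligand of the Nodal/activin receptors and SB431542 inhibits those receptors, whereas LDN193189 inhibits the type I receptors of BMP. Each treated table held 1 library of the knockout line labelled KO1, 1 of the line labelled KO2 and 2 of WT cells. Untreated cells were in a count table, with 2 libraries each of the lines named KO8 and KO7 and of WT, and in a table with 2 HMCES-KO and 2 WT libraries. Which of KO7 and KO8 is KO1 or KO2, the line of the HMCES-KO libraries in the second untreated table, and whether a line is 1 clone are not given in the sources used here. The HMCES-KO columns of that table are headed K81 and K82 and its WT columns CCE1 and CCE2, and what these names stand for is not stated. No vehicle-treated library was analysed here, so the treatments were compared with each other.

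BMP ligands bind pairs of type I and type II receptors, which phosphorylate SMAD1 and SMAD5; these enter the nucleus with SMAD4 and bind the enhancers of target genes. The Id genes are among the fastest of these targets. They encode helix-loop-helix proteins that lack a DNA-binding region and hold the E proteins and other basic helix-loop-helix factors away from DNA, and in mouse embryonic stem cells their induction by BMP4 is known to help maintain self-renewal. Msx1 and Msx2 encode homeodomain repressors that respond to BMP in mesoderm, neural crest and limb rather than mainly in pluripotent cells.

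On mm10, Id1 lies at chr2:152736251-152737410 on the plus strand, Id2 at chr12:25093799-25096092 on the minus strand, Id3 at chr4:136143822-136145392 on the plus strand and Id4 at chr13:48261116-48266028 on the plus strand. Msx1 lies at chr5:37820491-37824585 and Msx2 at chr13:53466881-53472780, both on the minus strand. Values cover exons summed over each gene. The 5′ end of Id4 overlaps A330033J07Rik, annotated as antisense on the other strand, which had 0 to 1 counts in every library of the count table. RefSeq promoter sequence on GRCm38.p6, the assembly of mm10, was available for 5 of the 6 genes. The 250 bases before the start of Id2 (chr12:25096093-25096342, minus strand) and of Id3 (chr4:136143572-136143821, plus strand) are shown because these genes had the most similar levels across the treated libraries. Capitals mark GGCGCC, a GC-rich SMAD1/5 motif that is its own reverse complement, and GTCT or its reverse complement AGAC, the SMAD-binding element, searched on both strands with matches of the motifs allowed to overlap.
Id2: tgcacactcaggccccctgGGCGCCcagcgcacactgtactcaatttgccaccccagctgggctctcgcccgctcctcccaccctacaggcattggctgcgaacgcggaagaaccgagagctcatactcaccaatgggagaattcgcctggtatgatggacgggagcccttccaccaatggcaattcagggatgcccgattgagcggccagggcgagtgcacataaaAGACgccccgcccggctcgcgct
Id3: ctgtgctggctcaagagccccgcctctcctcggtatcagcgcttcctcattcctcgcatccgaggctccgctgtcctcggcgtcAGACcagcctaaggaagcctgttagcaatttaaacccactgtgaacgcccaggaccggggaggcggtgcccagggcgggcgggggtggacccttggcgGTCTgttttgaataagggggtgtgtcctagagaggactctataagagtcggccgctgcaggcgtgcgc
Id2 held 1 GGCGCC and 1 GTCT match, and Id3 held 0 GGCGCC and 2 GTCT matches. Of the genes not shown, Id4 held 1 GGCGCC and 0 GTCT matches, Msx1 held 0 of either, and Msx2 held 0 GGCGCC and 1 GTCT match. Among 27025 promoters of this length, 9.5% held GGCGCC and 83.0% held GTCT. These matches describe the letters of the window and are not evidence of binding.

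In units of 1000000 reads, the libraries of the count table held 9.57 to 13.51. The TPM tables (reads per gene length, scaled to 1000000 per library) hold no depth, but whole reads could be recovered from them, with 8.52 to 10.04 such units per untreated library and 4.0 to 5.36 per treated library. The labels do not state that the libraries of a group are from separate cultures. Each p-value reflects only the spread between libraries within groups, pooled over the groups of its fit, and this may be technical. In the treated HMCES-KO groups this spread includes the difference between KO1 and KO2. For the mean of KO7 and KO8 the spread between these lines does not enter. Hmces RNA stood at 21.2% to 64.1% of the WT mean of its table in the 14 HMCES-KO libraries. The 9 markers of embryonic stem cells summed to 12200 to 26800 TPM in HMCES-KO libraries and to 12200 to 23600 TPM in WT libraries, and each exceeded 1 TPM in at least 1 library of each group of the 2 untreated tables. Their sums were lower in HMCES-KO libraries of the count table (14300 to 14600 against 14800 to 15000 TPM) and higher under LDN193189 (24400 to 26800 against 22800 to 23000). They were 12200 to 12300 against 12200 to 12400 in untreated TPM and 23500 to 26400 against 23600 under BMP4. Under activin A they were 22000 to 23400 against 21800 to 22000, and under SB431542 21800 to 23800 against 21600 to 21800. Extraembryonic endoderm markers (10 genes) summed to 217 to 222 TPM in HMCES-KO and 415 to 449 TPM in WT libraries of the count table, 215 to 217 against 285 to 303 TPM in the untreated TPM table and, within each treated table, to less in both HMCES-KO than in both WT libraries (45.3 to 52.0 against 77.8 to 80.0 TPM under activin A, 43.2 to 53.5 against 72.3 to 80.0 under SB431542, 68.9 to 82.1 against 112 to 119 under BMP4, and 63.6 to 77.8 against 96.9 to 117 under LDN193189). Neuroectoderm markers (5 genes) summed to 253 to 364 TPM in HMCES-KO and 165 to 181 TPM in WT libraries of the count table, to 191 to 218 against 153 to 165 TPM in the untreated TPM table, to 1040 to 1240 against 871 to 885 TPM under BMP4 and to 922 to 1190 against 819 to 897 TPM under LDN193189; they overlapped between genotypes under activin A and SB431542. Fibroblast markers (6 genes) summed to more in both HMCES-KO than in both WT libraries in 5 of 6 tables. The sums were 529 to 546 against 447 to 457 TPM in untreated TPM and 764 to 845 against 615 to 664 with activin A. They were 692 to 885 against 631 to 641 with SB431542 and 626 to 808 against 534 to 575 with BMP4. With LDN193189 they were 637 to 825 against 570 to 571. In the count table they overlapped (345 to 597 against 343 to 390 TPM). The median log2 fold change of the 3 or 4 fibroblast markers tested did not follow these sums. It was -1.45 in the mean of KO7 and KO8, where 1 rose and 3 fell, and -0.21 in untreated TPM. In treated cells it was -0.36 (LDN193189), -0.625 (activin A), -0.11 (SB431542) and 0.002 (BMP4). Trophectoderm markers summed to less, without overlap, in untreated TPM (48.0 to 50.2 in HMCES-KO against 59.1 to 60.8 TPM in WT). The same held under activin A (119 to 161 against 173 to 181) and under SB431542 (136 to 162 against 166). Their sums overlapped in the other 3 tables. The median log2 fold change of the trophectoderm markers tested was 0.04 in untreated TPM, -0.34 under activin A and -0.125 under SB431542. In counts it was 0.75 in KO8 and -0.32 in KO7 against WT. Mesoderm markers summed to at most 14.4 TPM in HMCES-KO and 12.4 TPM in WT libraries. Their sums were higher in untreated TPM (7.44 to 8.6 in HMCES-KO against 4.52 to 6.2 TPM in WT) and overlapped in the other 5 tables. The part of these marker differences in the results on the Id genes was not tested, and in bulk RNA fewer cells of a type and less RNA per cell cannot be told apart.

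In untreated cells Id2 was the member that differed most, 3.06-fold higher in HMCES-KO than in WT cells of the count table and 4.04-fold higher in those of the TPM table. In CPM (counts scaled to 1000000 per library), Id2 stood at 27.7 and 27.1 in KO8, at 28.1 and 25.8 in KO7 and at 7.73 and 10.99 in WT. All 4 HMCES-KO libraries lay above both WT libraries, with 257 to 379 reads each against 92 to 110. In the untreated TPM table Id2 stood at 207 and 226 TPM in HMCES-KO cells, against 52.2 and 53.4 TPM in WT cells. The log2 fold change was 1.61 ± 0.13 (SE) averaged over KO7 and KO8 (edgeR quasi-likelihood test, Benjamini-Hochberg adjusted p = 1.1e-08) and 2.02 ± 0.06 in the TPM table (limma on log2(TPM + 1), adjusted p = 8.9e-05). KO7 and KO8 did not differ detectably in Id2 (log2 difference of KO8 minus KO7 0.00 ± 0.12).

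Id1, the most abundant member per gene length, was higher in HMCES-KO cells in both untreated tables, by different amounts. Its CPM was 177 and 173 in KO8, 158 and 161 in KO7 and 134 and 152 in WT, so that the groups did not overlap but lay close. Its TPM was 788 and 771 in HMCES-KO cells and 328 and 315 in WT cells of the other table, where the groups were far apart. The log2 fold change was 0.28 ± 0.06 averaged over KO7 and KO8 (edgeR adjusted p = 0.00069) and 1.28 ± 0.04 in the TPM table (limma; adjusted p = 8.9e-05). With KO7 and KO8 taken as 1 group, the first of these was 0.28 with an adjusted p of 0.061.

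Id3 separated the knockout lines of the count table. It stood at 48.4 and 48.4 CPM in KO8, at 21.2 and 19.2 CPM in KO7 and at 22.3 and 28.8 CPM in WT. Both KO8 libraries lay above the WT libraries and both KO7 libraries just below them. The log2 fold change was 0.98 ± 0.11 in KO8 against WT (edgeR adjusted p = 1.3e-06) and -0.25 ± 0.12 in KO7 against WT (adjusted p = 0.12), which without WT replicate 1 was -0.44 and called lower (0.0045). Averaged over both lines it was 0.36 ± 0.10 (adjusted p = 0.0082), a call lost without WT replicate 1 (0.21) or KO7 replicate 1 (0.051) and with KO7 and KO8 taken as 1 group (0.47). The difference of KO8 over KO7, a comparison chosen after the data had been seen, was itself 1.23 ± 0.12 (edgeR adjusted p = 7.9e-08). In the untreated TPM table Id3 stood at 106 and 87.3 TPM in HMCES-KO cells and 68.4 and 80.6 TPM in WT cells, ranges that did not overlap, with a log2 fold change of 0.37 ± 0.12 that missed the threshold (limma adjusted p = 0.084); edgeR on the recovered reads gave 0.43 with an adjusted p of 0.0062, and without HMCES-KO replicate 2 limma gave 0.50 with 0.0092.

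Id4 was higher in all 4 HMCES-KO libraries of the count table, at 13.4 and 11.1 CPM in KO8 and 14.1 and 14.7 CPM in KO7, against 9.75 and 8.49 CPM in WT. The log2 fold change was 0.59 ± 0.14 in the mean of both lines (edgeR adjusted p = 0.0022), though with KO7 and KO8 taken as 1 group the adjusted p was 0.054. In the untreated TPM table it stood at 4.28 and 3.99 TPM in HMCES-KO and 3.35 and 3.97 TPM in WT cells, a log2 difference of 0.14 ± 0.18 (limma adjusted p = 0.62). Msx2 had 14 to 20 counts in HMCES-KO and 18 to 21 counts in WT libraries, and Msx1 had 2 to 7 counts in both genotypes, with 0 to 1 recovered reads per HMCES-KO library and 1 per WT library of the TPM table, and was too low to be tested in either untreated table. Msx1 and Msx2 differences between untreated genotypes were not detectable at this depth.

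Averaged over KO7 and KO8, the counts of 4 among 5 members tested were called higher, where 40.6% of all genes tested were called in either direction. In KO8 alone 4 of 5 were called against a background of 38.9%, in KO7 alone 3 of 5 (Id1, Id2 and Id4) against 38.2%, and between KO8 and KO7 1 of 5 (Id3) against 28.2%. The KO7 call of Id1 was lost without WT replicate 1 or either KO7 library (adjusted p from 0.069 to 0.10), and the KO8 call of Id4 with DESeq2 (0.13), without WT replicate 2 (0.078) and without KO8 replicate 1 (0.26). In untreated TPM 2 of 5 were called (Id1 and Id2) against 16%. The median log2 fold change of the members tested was 0.36 in the mean of KO7 and KO8 against -0.01 over all genes, and 0.42 against -0.06 in the untreated TPM table. The untreated and treated TPM tables were made with different gene lengths, and the untreated tables differ in their libraries, so levels are compared only within a table.

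**Figure D1:**
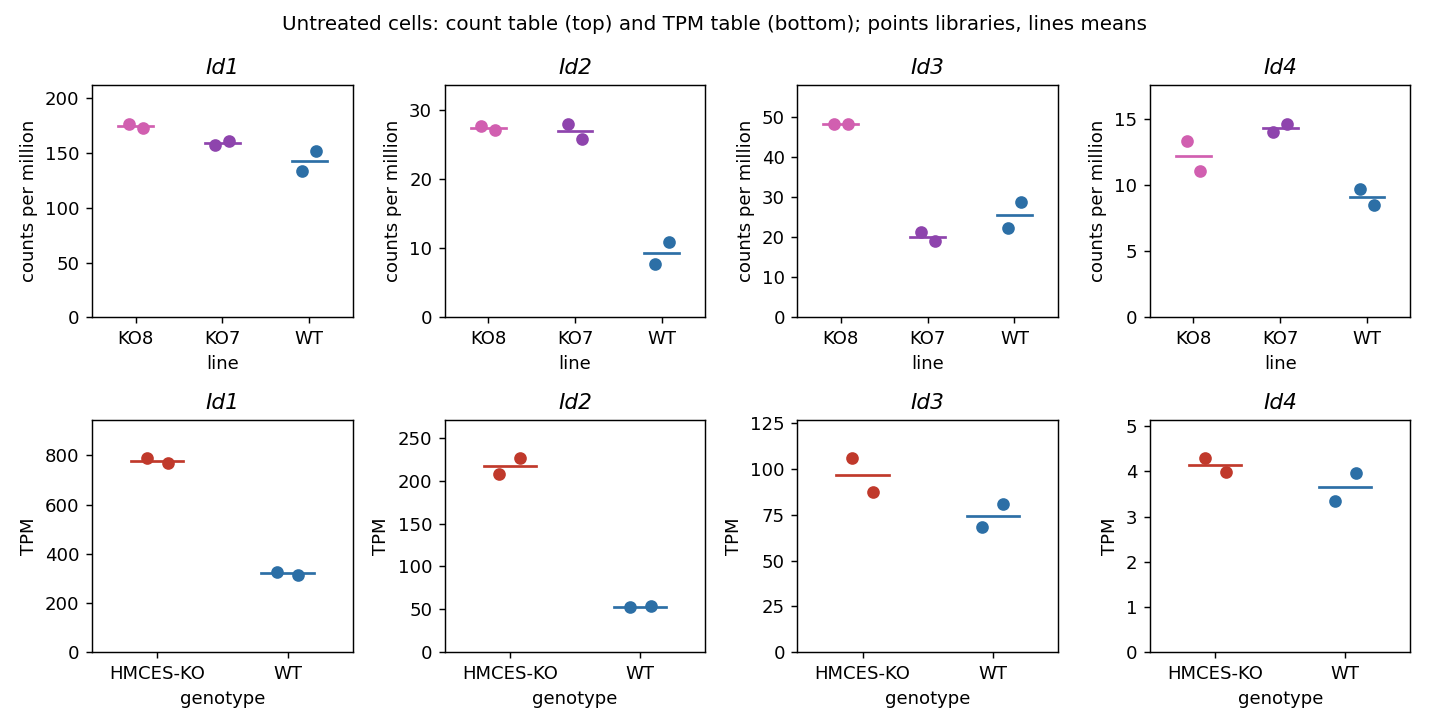
Levels of Id1 to Id4 in untreated cells, in CPM by line (top row) and in TPM by genotype (bottom row); points are libraries and horizontal lines are group means. Id2 is high in each HMCES-KO library of both tables, Id3 is at 48.4 CPM in both KO8 libraries and at 21.2 and 19.2 CPM in KO7, and Id1 is far apart between genotypes in the TPM table only.

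After 2 h of treatment Id1, Id2 and Id3 were most of the genes called between BMP4 and LDN193189 in each genotype. In HMCES-KO cells Id1, Id2 and Id3 were the only genes of 12608 tested that were called between these treatments, all higher under BMP4 (3 to 12 genes were called under the alternatives). In WT cells the same members were called together with Btf3, which was lower (log2 fold change -0.98 ± 0.15, limma adjusted p = 0.046). The comparison was made with limma on 16 treated libraries fitted together.

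Id1 stood at 3082 (KO1) and 4369 (KO2) TPM in BMP4-treated HMCES-KO cells, against 739 and 545 TPM in the same lines under LDN193189. In WT cells it stood at 1246 and 1263 TPM under BMP4 and at 599 and 546 TPM under LDN193189. The BMP4 and LDN193189 libraries did not overlap in either genotype. The log2 fold change of BMP4 over LDN193189 was 2.53 ± 0.15 in HMCES-KO cells (adjusted p = 4.4e-06) and 1.13 ± 0.15 in WT cells (adjusted p = 0.032). It was the highest of all 12608 genes in the mean of KO1 and KO2 and ranked 50 in WT cells. In each line on its own it ranked 18 (KO1) and 4 (KO2).

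Id2 stood at 328 (KO1) and 582 (KO2) TPM under BMP4 and at 79.1 and 110 TPM under LDN193189 in HMCES-KO cells. In WT cells it stood at 168 and 156 TPM under BMP4 and at 45.4 and 34.9 TPM under LDN193189. The log2 fold change was 2.21 ± 0.22 in HMCES-KO cells (adjusted p = 0.00056) and 2.00 ± 0.22 in WT cells (adjusted p = 0.0056). Id2 was thus 4.64-fold higher under BMP4 than under LDN193189 in HMCES-KO cells and 3.99-fold higher in WT cells, at different levels.

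Id3 stood at 363 (KO1) and 579 (KO2) TPM under BMP4 and at 98.7 and 109 TPM under LDN193189 in HMCES-KO cells. Its WT levels were 172 and 208 TPM under BMP4 and 67.7 and 77.4 TPM under LDN193189. Its log2 fold change was 2.13 ± 0.19 in HMCES-KO cells (adjusted p = 0.00032) and 1.37 ± 0.19 in WT cells (adjusted p = 0.033). No BMP4 library overlapped an LDN193189 library of its genotype.

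**Figure D2:**
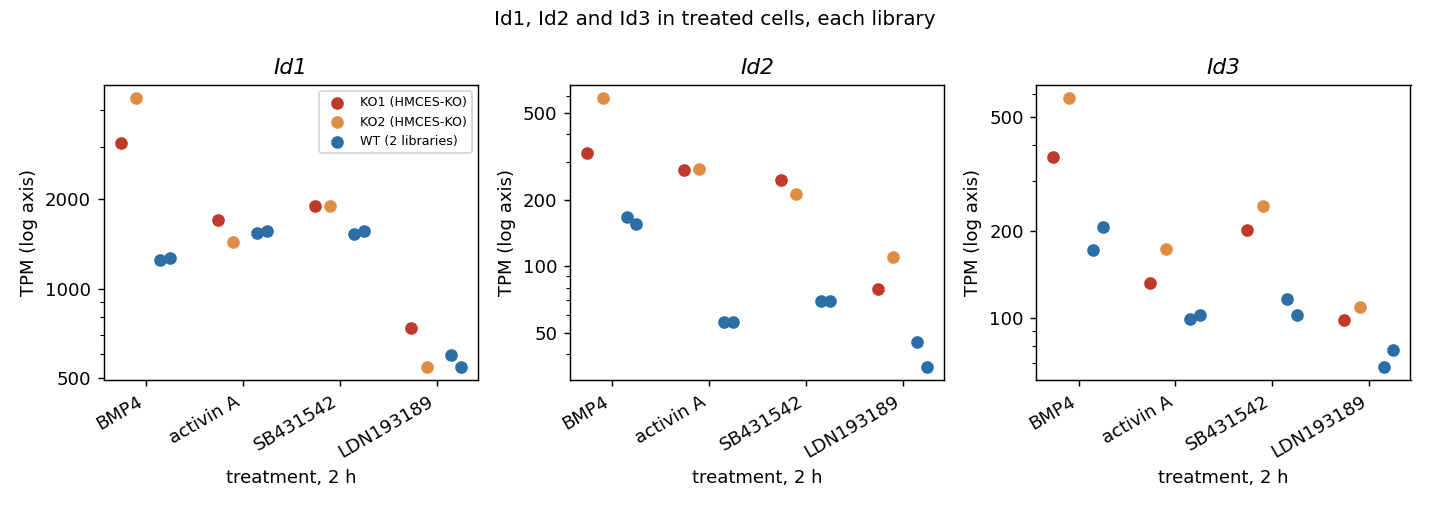
TPM of Id1, Id2 and Id3 in each treated library (log axis), with KO1 and KO2 as 1 library each and WT as 2 libraries per treatment, all after 2 h. The BMP4 libraries of HMCES-KO cells lie highest for all 3 genes and the LDN193189 libraries lie lowest within each genotype; WT Id1 under BMP4 lies at 1246 and 1263 TPM, below WT under activin A and SB431542.

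Each knockout line was also fitted on its own, with 1 library per treatment and a spread taken only from the WT pairs, so these values assume that HMCES-KO libraries vary as WT libraries do. In KO1 the log2 fold changes of BMP4 over LDN193189 were 2.06 ± 0.07 for Id1, 2.04 ± 0.16 for Id2 and 1.87 ± 0.16 for Id3 (limma adjusted p of 1.5e-06, 0.0014 and 0.0017). The other gene called in KO1 was Lefty1, which encodes an inhibitor of Nodal (1.40 ± 0.15). In KO2 they were 3.001 ± 0.07 for Id1, 2.39 ± 0.16 for Id2 and 2.40 ± 0.16 for Id3 (adjusted p of 4.1e-08, 0.00022 and 0.00022), among 54 genes called. KO2 had the larger value for each of Id1, Id2 and Id3, and this difference between lines was not tested. Lefty1 was called in KO2 too (1.08 ± 0.15). Without limma's trend in the prior, 0 of 3 members kept the call in KO1 (adjusted p from 0.075 to 0.15) and only Id1 kept it in KO2.

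In the comparisons of BMP4 with LDN193189, 3 of 6 members were called in HMCES-KO cells, where 0.0238% of all genes were called, and 3 of 6 in WT cells, where 0.0317% were. In KO1 alone 3 of 6 were called against 0.0317%, and in KO2 alone 3 of 6 against 0.428%. The median log2 fold change over the 6 members was 1.41 in HMCES-KO and 0.76 in WT cells, against -0.015 in both over all genes. The WT calls depended on the settings: with only the BMP4 and LDN193189 tables in the fit 0 members were called (adjusted p from 0.22 to 0.46), and leaving out 1 WT library of either treatment left 0 to 1. In HMCES-KO cells 3 members were called under each of the alternatives that left out 1 library.

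**Figure D3:**
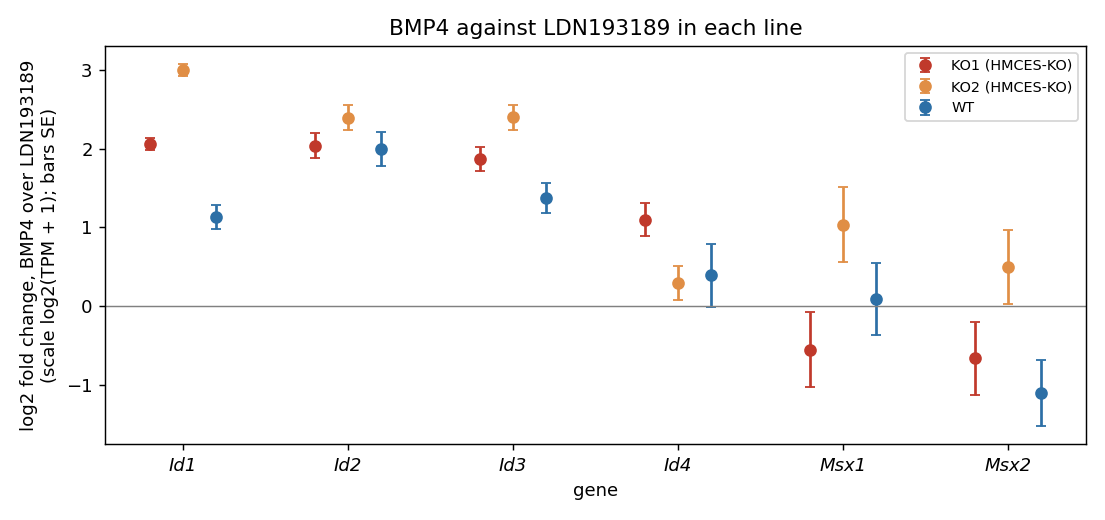
Log2 fold change of BMP4 over LDN193189 for the 6 genes in KO1, KO2 and WT, with standard errors as bars on the scale of log2(TPM + 1); the bars of KO1 and KO2 rest on the spread of WT pairs. Id1 is ordered KO2 (3.001), KO1 (2.06), WT (1.13), Id2 lies between 2.00 and 2.39 in all lines, and the values of Msx1 and Msx2 differ in sign between lines.

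Whether the BMP4 response itself differed between genotypes was tested as a difference of differences. For BMP4 against LDN193189, the response of Id1 was larger in HMCES-KO than in WT cells by 1.40 ± 0.22 on the log2 scale, that of Id3 by 0.76 ± 0.28 and that of Id2 by 0.22 ± 0.31. None of the 6 members was called by limma (0% of all genes were called; adjusted p = 0.26 for Id1, 0.95 for Id3 and 1.00 for Id2), while 2 members had an unadjusted p under 0.05. edgeR on the recovered reads called 1, Id1 (1.40, adjusted p = 0.031).

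The position of BMP4 and of LDN193189 relative to the treatments that act on the other branch was examined in comparisons chosen after the data had been seen, against the mean of activin A and SB431542. In HMCES-KO cells Id1 stood at 3082 and 4369 TPM under BMP4, against 1707 and 1438 TPM under activin A and 1891 and 1894 TPM under SB431542. In WT cells it stood at 1246 and 1263 TPM under BMP4, against 1536 and 1563 TPM under activin A and 1525 and 1568 TPM under SB431542. Id1 was higher under BMP4 than this mean in HMCES-KO cells (1.09 ± 0.13, limma adjusted p = 0.0011), in both lines. In WT cells both BMP4 libraries lay below all 4 activin A and SB431542 libraries, with a log2 difference of -0.30 ± 0.13 that was not called (adjusted p = 0.23). The difference between genotypes, 1.39 ± 0.19, was called (limma adjusted p = 0.015), but not without WT replicate 1 under activin A, without either WT library under SB431542 or BMP4 (adjusted p from 0.055 to 0.13), or without the trend (0.077).

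Id2 and Id3 behaved otherwise in WT cells. Id2 stood at 168 and 156 TPM under BMP4, against 56.1 and 55.8 TPM under activin A and 69.6 and 69.3 TPM under SB431542 in WT cells, and exceeded their mean by 1.36 ± 0.19 (limma adjusted p = 0.0013). In HMCES-KO cells it stood at 328 and 582 TPM under BMP4, against 274 and 279 TPM under activin A and 249 and 214 TPM under SB431542. It exceeded the mean of activin A and SB431542 by 0.79 ± 0.19, which was not called (limma adjusted p = 0.061). The adjusted p was 0.019 with a replicate block, for knockout line and for WT replicate number. With TMM-rescaled TPM it was 0.045, with only the tables compared in the fit 0.044 and with edgeR on recovered reads 0.0055. Id3 under BMP4 exceeded the same mean by 1.32 ± 0.17 in HMCES-KO cells (adjusted p = 0.0015) and by 0.84 ± 0.17 in WT cells (adjusted p = 0.011, and 0.051 and 0.17 without either WT library under BMP4). The differences between genotypes were -0.57 ± 0.27 for Id2 (adjusted p = 0.50) and 0.47 ± 0.24 for Id3 (adjusted p = 0.54).

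LDN193189 gave the lowest level of Id1, Id2 and Id3 in each line. Against the mean of activin A and SB431542, Id1 fell by 1.44 ± 0.13 in HMCES-KO cells and fell by 1.44 ± 0.13 in WT cells (limma adjusted p of 0.00011 and 7.0e-05). Id2 fell by 1.43 ± 0.19 in HMCES-KO cells (adjusted p = 0.0020), and its WT difference of -0.63 ± 0.19 was not called (adjusted p = 0.079), but was with only the tables compared in the fit (0.029) and with the replicate block (0.032). Id3 fell by 0.81 ± 0.17 in HMCES-KO cells (adjusted p = 0.032, lost without the trend and without 1 of 4 libraries, from 0.063 to 0.18), and its WT difference of -0.53 ± 0.17 was not called (adjusted p = 0.10), but was with the same changes (0.042 and 0.013).

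For BMP4 against this mean 2 of 6 members were called in HMCES-KO cells, against 1.51% of all genes, 2 of 6 in WT cells, against 5.50%, and 1 of 6 in the difference between genotypes, against 0.111%. For LDN193189 against it 3 of 6 were called lower in HMCES-KO cells, against 1.19% of all genes, and 1 of 6 in WT cells, against 4.56%. Between activin A and SB431542, limma called 0 of 6 members in HMCES-KO cells (0.103% of all genes) and 0 of 6 in WT cells (0.0159%). At an unadjusted p under 0.05 these counts were 1 and 0, and edgeR on the recovered reads called 0 and 0. Marker lists moved in these comparisons too. The median log2 difference of extraembryonic endoderm markers was 0.90 in HMCES-KO and 0.93 in WT cells for BMP4, and 0.91 and 0.73 for LDN193189. That of trophectoderm markers was -0.44 in HMCES-KO and -0.88 in WT cells for BMP4, and -0.58 and -0.83 for LDN193189. Their part in the results on the Id genes was not tested. The treatments were deposited as separate tables, so treatment and table cannot be told apart in any contrast between treatments.

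Within each treatment, the difference between genotypes depended on the member. Id2 was called higher in HMCES-KO than in WT cells under all 4 treatments. Its log2 fold change was 1.43 ± 0.22 under BMP4, 2.29 ± 0.22 under activin A, 1.72 ± 0.22 under SB431542 and 1.21 ± 0.22 under LDN193189 (limma adjusted p of 0.0031, 8.6e-05, 0.00054 and 0.012). Both HMCES-KO libraries lay above both WT libraries in every treatment. The call under LDN193189 was lost without the trend (adjusted p = 0.063), with only that table in the fit (0.16) and without WT replicate 2 (0.15).

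Among the 4 treatments Id1 was called higher under BMP4 only, with 1.55 ± 0.15 (limma adjusted p = 0.00026); with only the SB431542 table in the fit it was also called there (0.042). Under activin A, SB431542 and LDN193189 its log2 differences were 0.02, 0.29 and 0.15, each ± 0.15 (adjusted p of 0.96, 0.25 and 0.67), and its HMCES-KO and WT libraries overlapped under activin A and LDN193189. Id3 was called higher under BMP4 (1.28 ± 0.19, adjusted p = 0.0031) and under SB431542 (1.02 ± 0.19, adjusted p = 0.0056, and 0.060 without WT replicate 2). With only the BMP4 table in the fit, Id2 and Id3 each had an adjusted p of 0.061 there. It stood at 202 and 245 TPM in HMCES-KO and 116 and 102 TPM in WT cells under SB431542, and at 132 and 173 against 99.1 and 102 TPM under activin A. Under activin A this gave 0.58 ± 0.19 with an adjusted p of 0.068, which was 0.0092 with the block for knockout line and WT replicate number. Under LDN193189 Id3 gave 0.51 ± 0.19 with 0.19, which was 0.039 with the same block.

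Line by line, Id2 was 1.96-fold (KO1, LDN193189) to 4.92-fold (KO2, activin A) the WT mean. Under BMP4, KO1 stood at 2.46-fold the WT mean for Id1, 2.02-fold for Id2 and 1.92-fold for Id3, and KO2 at 3.48-fold, 3.58-fold and 3.06-fold. Hmces stood at 51.7% to 64.1% of the WT mean in KO1 and at 25.0% to 34.0% in KO2; the part of this in the results was not tested, and with 1 library per line and treatment the lines were not tested against each other. Under BMP4 3 of 6 members were called, where 6.33% of all genes were. Under activin A the count was 1 of 6 (12.1% of all genes), under SB431542 2 of 6 (12.1%) and under LDN193189 1 of 6 (2.29%). The median log2 fold change over the members was 1.15 under BMP4, 0.75 under activin A, 0.62 under SB431542 and 0.49 under LDN193189, against -0.06, -0.04, -0.03 and -0.06 over all genes.

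**Figure D4:**
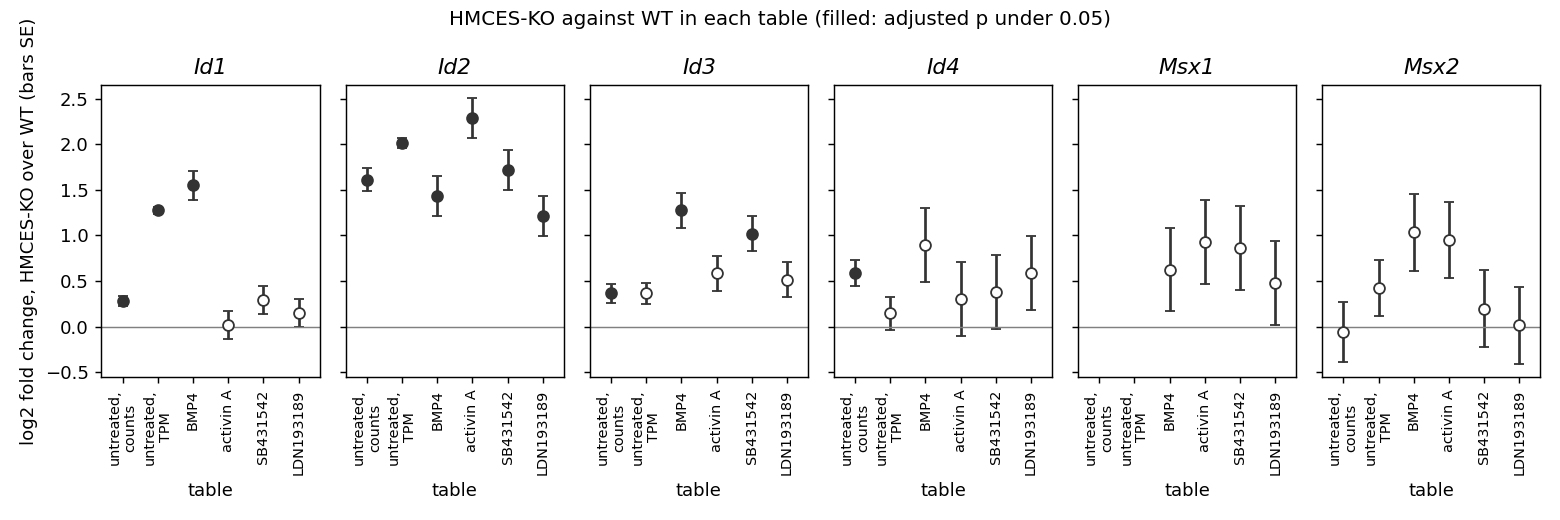
Log2 fold change of HMCES-KO over WT in the 6 tables, with standard errors as bars and filled points for an adjusted p under 0.05; TPM values are on the scale of log2(TPM + 1), and Msx1 was not tested in the untreated tables. Id2 is filled in all 6 tables, from 1.21 to 2.29, while Id1 ranges from 0.02 under activin A to 1.55 under BMP4, and Msx1 and Msx2 have no filled point.

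Id4 and the Msx genes were low and followed the treatments less clearly. Id4 ranged from 12.2 to 45.3 TPM (median 32.0) in the 8 treated HMCES-KO libraries and from 14.0 to 21.8 TPM (median 16.8) in the 8 treated WT libraries. Under BMP4 it stood at 36.4 (KO1) and 45.3 (KO2) TPM against 21.8 and 20.9 TPM in WT, with a log2 difference of 0.90 ± 0.41 that was not called (limma adjusted p = 0.21). KO1 was the higher line under activin A (33.9 against 16.7 TPM in KO2) and SB431542 (30.1 against 12.2 TPM), and KO2 under LDN193189 (36.8 against 16.5 TPM in KO1). BMP4 against LDN193189 gave 0.69 ± 0.41 in HMCES-KO and 0.39 ± 0.41 in WT cells (adjusted p of 1.00 and 1.00).

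Msx1 ranged from 0.909 to 4.19 TPM in treated HMCES-KO libraries, with 5 to 25 reads each, and from 0.584 to 1.67 TPM in treated WT libraries, with 3 to 9 reads each. Under BMP4 it stood at 1.16 (KO1) and 4.07 (KO2) TPM, against 0.804 and 1.55 TPM in WT, and the groups overlapped. BMP4 over LDN193189 was -0.55 ± 0.48 in KO1, 1.03 ± 0.48 in KO2 and 0.09 ± 0.46 in WT. Under activin A and SB431542 both HMCES-KO libraries lay above both WT libraries, with log2 differences of 0.92 ± 0.46 and 0.87 ± 0.46 (limma adjusted p of 0.22 and 0.25).

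Msx2 ranged from 7.33 to 21.1 TPM in treated HMCES-KO libraries, with 19 to 61 reads each, and from 3.98 to 20.6 TPM in WT libraries, with 10 to 45 reads each. In WT cells it stood at 7.68 and 4.92 TPM under BMP4 and at 20.6 and 9.97 TPM under LDN193189, so that BMP4 lay lower, by a log2 difference of -1.10 ± 0.42 that was not called (limma adjusted p = 1.00, unadjusted p = 0.021). In HMCES-KO cells it stood at 8.76 and 21.1 TPM under BMP4 and at 14.5 and 14.6 TPM under LDN193189. Msx1 and Msx2 were called in 0 of 16 and 0 of 21 comparisons. At an unadjusted p under 0.05 Msx2 differed in 4 of them, and under the alternatives, which included edgeR on recovered reads, both were called in 0 of 208 and 0 of 245 tests.

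**Figure D5:**
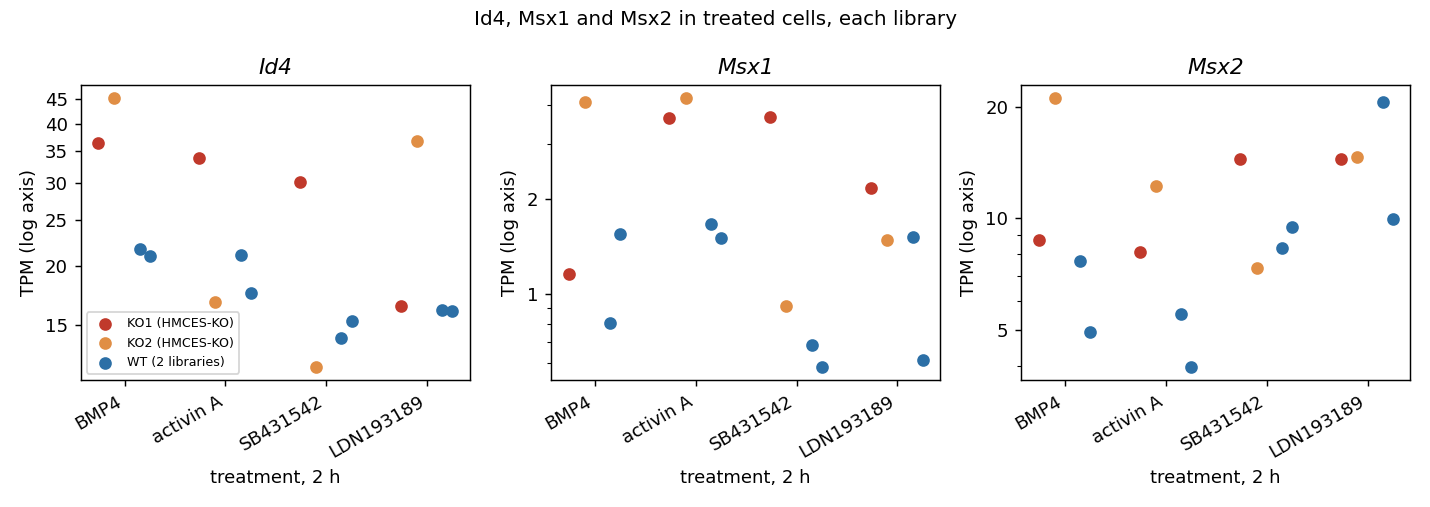
TPM of Id4, Msx1 and Msx2 in each treated library (log axis), with KO1 and KO2 as 1 library each and WT as 2 libraries per treatment. The HMCES-KO lines change places between treatments for Id4, Msx1 does not exceed 4.19 TPM, and the highest WT value of Msx2, 20.6 TPM, is under LDN193189.

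Across the 16 treated libraries the levels of Id2 and Id3 were the most alike among the members (Pearson r of log2(TPM + 1) 0.897), followed by Id1 and Id3 (0.818) and Id1 and Id2 (0.717). Id4 had r of 0.391 with Id1, 0.623 with Id2 and 0.548 with Id3, and Msx2 had -0.135 with Id1. These libraries share genotype, treatment and table, and the values are a description. Among 9311 genes with a mean of at least 5 TPM, the 3 genes most like Id1 were Id3, Ofd1 (0.781) and Bbc3 (0.747). Those most like Id2 were Id3, Kat5 (0.896) and Coch (0.880), and those most like Id3 were Id2, Nmb (0.831) and Id1. Id4 was most like Chic2 (0.819), Jund (0.791) and Hes1 (0.786), Msx1 like Csk (0.866), Ctsb (0.856) and Tmem259 (0.840), and Msx2 like Lsm5 (0.810), Pacs2 (0.797) and Asrgl1 (0.785).

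Other genes of the pathway were read from 8 lists. Between BMP4 and LDN193189, 0 of 8 BMP ligands, 0 of 6 receptors, 0 of 3 BMP SMADs, 0 of 7 secreted antagonists, 0 of 7 intracellular or membrane inhibitors, 0 of 10 further BMP targets and 0 of 9 partners of Id proteins that could be tested were called by limma in HMCES-KO or in WT cells, where 0.0238% and 0.0317% of all genes were. Among the inhibitors, Smad7, which encodes an inhibitory SMAD, had a log2 difference of 1.05 ± 0.21 in HMCES-KO (adjusted p = 0.46) and 0.41 ± 0.21 in WT cells (adjusted p = 1.00). In the fits of each line on its own, Smad7 was called higher in KO2 (1.11 ± 0.13) but not in KO1. Bambi, a BMP target that encodes a pseudoreceptor, had 0.91 ± 0.18 in HMCES-KO (adjusted p = 0.46) and -0.02 ± 0.18 in WT cells (adjusted p = 1.00). The median over the inhibitors was 0.68 in HMCES-KO and 0.26 in WT cells, against -0.015 in both over all genes.

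Between untreated genotypes the upstream genes were mixed. In counts, averaged over KO7 and KO8, 40.6% of all genes were called in either direction. Of 6 BMP ligands tested 1 rose (Gdf3, 0.32 ± 0.06) and 2 fell (Bmp7, -1.57 ± 0.17, and Bmp6, -0.97 ± 0.33). Of 7 receptors 1 rose (Acvr2b, 0.15 ± 0.06) and 2 fell (Bmpr2, -0.30 ± 0.08, and Acvrl1, -1.33 ± 0.20), and 0 of 3 BMP SMADs were called. Of 6 secreted antagonists 1 rose (Fst, which encodes the activin-binding follistatin, 0.89 ± 0.18). Of 7 inhibitors 1 rose (Ski, 0.13 ± 0.05) and 2 fell (Smad7, -0.96 ± 0.05, edgeR adjusted p = 7.7e-12, and Smurf2, -0.21 ± 0.06). Of 10 further BMP targets 0 rose and 5 fell. The share called in either direction was near that over all genes, of which 2677 of 13475 rose and 2799 fell. Among the targets that fell were Dusp9, which encodes a phosphatase that acts on ERK (-0.66 ± 0.05, edgeR adjusted p = 3.3e-09), and Tbx3, which encodes a transcription factor of naive pluripotency (-0.42 ± 0.05). The median of the 10 further targets was -0.29, against -0.01 over all genes. The lines differed: in KO8 0 of these targets rose and 2 fell, with a median of -0.11 (38.9% of all genes were called), and in KO7 1 rose and 7 fell, with a median of -0.48 (38.2%). Likewise 0 of 3 BMP SMADs were called in KO8 and 3 of 3 rose in KO7, and in KO8 against KO7 3 of 3 were lower (28.2% of all genes). In untreated TPM, where 16% of all genes were called, 2 of 9 further targets rose (Cdx2, 1.39 ± 0.29, and Zeb2, 1.16 ± 0.24) and 2 fell (Dusp9, -0.36 ± 0.05, and Tbx3, -0.65 ± 0.04), and Smad1, which encodes a SMAD activated by BMP receptors, rose (0.43 ± 0.09, limma adjusted p = 0.028). A single gene also rose there among the ligands (Gdf3, 0.34 ± 0.04), the receptors (Bmpr1a, 0.21 ± 0.05), the inhibitors (Skil, 0.33 ± 0.04) and the partners of Id proteins (Hes1, 0.48 ± 0.08), and 0 of 7 secreted antagonists were called. Under BMP4 0 of 10 further targets were called between genotypes, where 6.33% of all genes were. Of the partners of Id proteins, Tcf3, which encodes the E proteins E12 and E47, rose by 0.19 ± 0.05 in the count table (edgeR adjusted p = 0.0047), where 1 of 7 rose and 3 fell.

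Nodal/activin targets were read in the same tables. Of 11 tested, 1 rose and 5 fell in the count table, against 40.6% of all genes called, and 6 rose and 0 fell in the untreated TPM table, against 16%. Lefty1 was at -0.63 ± 0.07 in the count table (edgeR adjusted p = 4.8e-07) and at 1.67 ± 0.06 in the table of untreated TPM (limma, adjusted p = 0.00023). Between BMP4 and LDN193189, 0 of 13 were called in HMCES-KO and 0 in WT cells. In the fits of each line on its own, Lefty1 was called higher in KO1 (1.40 ± 0.15) and in KO2 (1.08 ± 0.15). Smad7, which is also on this list, was called higher in KO2 (1.11 ± 0.13).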

How the data were processed

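The authors deposited whole-number counts per gene for 6 libraries of untreated cells, from featureCounts in paired mode over mm10 RefSeq exons, per the file headers. Bowtie2 2.3.3, featureCounts 2.0.1, SAMtools 1.9, DESeq2 and FastQC 0.11.5 are named per the submitters' processing notes; no strand setting is given there. The other 5 deposited tables hold the authors' TPM, with 4 libraries each; treated tables list 13438 to 13492 genes by a filter not given in the sources used here.

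The members and gene lists were chosen with earlier results of these data known, and every member is named. Counts were tested with edgeR 4.0.16 (TMM, filterByExpr, quasi-likelihood, 3 groups of 2 libraries). The TPM values were fitted in limma 3.58.1 (trended) on log2(TPM + 1), which understates changes of low genes, keeping genes with at least 1 TPM in at least 2 libraries. The 16 treated libraries were rescaled over 12928 shared genes and fitted as 8 groups, with KO1 and KO2 as 2 libraries of HMCES-KO. A gene was called at a Benjamini-Hochberg adjusted p under 0.05 over all genes tested, and ± is the standard error.

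Whole reads were recovered from TPM with R 4.3.3 and Python 3.11.15: 100% of untreated values above 0 were whole within 0.01 reads, and 12924 of 12928 treated genes had a unit that gave whole reads within 0.02. edgeR on these reads, DESeq2 1.42.0 on the deposited counts and the other alternatives are in the closing section, and the code was tested on simulated data. Same-numbered libraries deviated together only in the treated HMCES-KO lines (correlations 0.264 to 0.373, the same line in each table); elsewhere the numbers did not pair libraries.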

Additional observations from a re-analysis of the deposited data

Results flagged for a closer look

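Id1 under BMP4, relative to the mean of activin A and SB431542, differed between genotypes: the log2 response was larger in HMCES-KO than in WT cells by 1.39 (limma adjusted p = 0.015), with BMP4 above that mean in both HMCES-KO lines and below it in both WT libraries. This comparison was chosen after the data had been seen. Its call was lost without limma's trend (adjusted p = 0.077) and depended on single WT libraries. Many other genes also differed from this mean. In WT cells 693 of 12608 genes were called for BMP4 against it and 575 for LDN193189 against it, but 4 between BMP4 and LDN193189. Treatment and table cannot be told apart in this contrast.

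Id3 differed between the knockout lines of the count table, by a log2 difference of KO8 over KO7 of 1.23 (edgeR adjusted p = 7.9e-08), with both KO8 libraries above and both KO7 libraries below the WT libraries. This comparison, too, was chosen after the data had been seen.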

How the results depend on the processing

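Counts here are of members called. In the mean of KO7 and KO8 against WT, 4 became 1 (Id2) with KO7 and KO8 taken as 1 group. Without limma's trend, the count was 0 in place of 3 for BMP4 against LDN193189 in WT, 0 and 1 in place of 3 and 3 in KO1 and KO2, 0 in place of 1 for HMCES-KO against WT under LDN193189, and 0 in place of 1 for the difference between genotypes of BMP4 against the mean of activin A and SB431542. With only the libraries of the tables compared, it was 0 for BMP4 against LDN193189 in WT, 1 in place of 3 for HMCES-KO against WT under BMP4, 0 under LDN193189 and 2 in place of 1 under activin A, and 3 in place of 1 for LDN193189 against the mean of activin A and SB431542 in WT. Under activin A it was also 2 with TMM-rescaled TPM, with the replicate block and with edgeR on recovered reads, an alternative chosen after seeing the data, which gave 1 in place of 0 for the difference between genotypes of BMP4 against LDN193189. The replicate block also gave 2 in place of 1 under LDN193189 and 3 in place of 1 for LDN193189 against the mean in WT, and 3 in place of 2 for BMP4 against the mean in HMCES-KO cells; it changed no other count, those of the untreated tables (4, 3, 4, 1 and 2) included. The replicate numbers of WT and of untreated libraries do not pair them (correlations from -0.025 to 0.052), so the block there has no basis in the design. For BMP4 against the mean in HMCES-KO cells, Id2 was also called with TMM-rescaled TPM, with edgeR on recovered reads and with only the tables compared.

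Leaving out 1 library at a time gave 0 to 1 for BMP4 against LDN193189 in WT, 0 to 1 for its difference between genotypes, 1 to 2 for BMP4 against the mean in WT, 0 to 1 for that difference between genotypes, 1 to 2 for HMCES-KO against WT under SB431542 and 0 to 1 under LDN193189. The difference in Id1 that was called for BMP4 against the mean lost its call without 1 of 5 libraries (adjusted p from 0.055 to 0.13), each of them WT. Log2 differences that were not called changed sign in this way: Id1 from -0.108 to 0.139 and Id4 from -0.189 to 0.786 under activin A, Id4 from -0.242 to 0.993 under SB431542, Id1 from -0.070 to 0.369 under LDN193189, and the difference between genotypes of Id2 for BMP4 against LDN193189 from -0.195 to 0.631. Of 790 values of single members under alternatives, 711 kept direction and side of the threshold, 52 lost a call, 21 gained one and 6 reversed; the causes were not tested.

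Counts over all genes moved more: from 1552 to 6259 against 5476 for the mean of KO7 and KO8, from 339 to 3587 against 2128 in untreated TPM, from 41 to 1353 against 798 under BMP4, from 1 to 703 against 289 under LDN193189, and from 508 to 2145 and from 439 to 2124 against 1529 and 1531 under activin A and SB431542. For BMP4 against LDN193189 they were 0 to 4 against 4 in WT, 3 to 12 against 3 in HMCES-KO cells, 0 to 20 against 4 in KO1 and 1 to 362 against 54 in KO2. Depth limits Msx1 and Msx2, with at most 25 and 61 reads per treated library.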
